A study of Mus musculus with 6 samples.

Results

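The 9 genes described here set the electrical activity of heart muscle cells and were taken by name from read counts of isolated mouse cardiomyocytes. They are Kcnj3, Kcnj5, Kcnj11, Kcnq1, Kcnh2, Kcnd2, Kcnip2, Scn4b and Gja1. They make up 9 of 46078 gene features counted, and 2 further features, Gm26794 and Kcnq1ot1, have exons that lie opposite to exons of Kcnj3 and Kcnq1. One group of 3 libraries came from mice with a knockdown of Acly (Acly_KD) and the other group of 3 from mice labelled wildtype (control). Both came from perfused hearts. Acly encodes ATP citrate lyase, which makes acetyl-CoA in the cytosol. The series describes the knockdown as made in mice that carry Cas9 under the Myh6 promoter, which is active in heart muscle cells. The guide, the age and sex of the mice, and whether the controls carry Cas9 are not given in the sources used here. Separate animals are not named for the libraries of a group, and the spread between libraries behind each p-value may be technical. Values of a group are given in the order of replicates 1 to 3.

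Potassium channels end the cardiac action potential and hold the resting potential of the cell. Kcnj3 and Kcnj5 encode the subunits of the channel opened by acetylcholine through the muscarinic receptor, best known from atrial and nodal cells. Kcnj11 encodes the pore of the ATP-sensitive potassium channel, which opens when cellular ATP falls and pairs with the sulfonylurea receptors Abcc8 and Abcc9. Kcnq1 and Kcnh2 encode the pores of the slow and rapid delayed rectifier currents, and Kcnd2 with its partner Kcnip2 the fast transient outward current that dominates repolarization in the mouse ventricle. Scn4b encodes a beta subunit of the cardiac sodium channel, and Gja1 encodes connexin 43, the gap junction protein that couples ventricular cells.

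Reads counted in features numbered 271463 to 814765 per library. The counts looked strand-swapped, in that features with exons opposite to another gene's exons were 18.0% of nuclear features and held 91.9% of nuclear counts. Of the 100 nuclear features with most counts, 97 had such exons. Each gene was therefore read in both ways, as deposited at its own locus, and in a reading of mRNA that gives a feature's counts to the gene lying opposite to it. At the own locus of Acly the Acly_KD libraries had 0, 0 and 0 reads against 1, 5 and 6 for the controls. With a floor of 3 counts over the Acly_KD group this was 4.10-fold lower, with the 12 control reads taken as exact. These are wrong-strand reads if the strands were swapped, and then do not measure the mRNA. Groups apart in this direction were found for 5.56% of the 2952 features tested as deposited, and Acly was too low to be tested. All 11 heart muscle markers had reads at their own loci, with summed levels of 4933 to 17319 CPM (counts relative to library size) in Acly_KD and 12848 to 16054 CPM in control. The 8 immune markers summed to 75.7 to 96.7 CPM in Acly_KD and 87.4 to 124 CPM in control at their own loci. Csf1r alone held 325 reads over the 6 libraries, and the atrial gene Nppa held 82. Ptprc, Adgre1 and Cd3e of the immune list, and Sln, Bmp10 and Dkk3 of the atrial list, had 0 reads in all 6 libraries. With swapped strands such a 0 says nothing of the mRNA.

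The exons shared with an opposite feature decide which of the 9 genes can be read as mRNA, so these stretches are shown first. Kcnj3 shares 1621 bases with Gm26794, a lincRNA annotated on the other strand, in segments of 541 and 1080 bases that begin at the annotated start of Kcnj3. Of these, 660 bases are coding, and the first 150 coding bases of Kcnj3 in exon 2 are given below with the start codon in capitals. Kcnq1 shares 121 bases with Kcnq1ot1, an antisense RNA of an imprinted domain. They are the whole of exon 11 of Kcnq1-201, given below without capitals. Both are read 5′ to 3′ on the + strand from the GENCODE M21 transcripts (GRCm38, mm10).
Kcnj3, chr2:55437201-55437350: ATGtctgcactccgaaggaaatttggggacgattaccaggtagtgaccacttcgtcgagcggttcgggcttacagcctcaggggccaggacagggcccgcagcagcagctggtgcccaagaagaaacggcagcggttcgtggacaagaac
Kcnq1, chr7:143261256-143261376: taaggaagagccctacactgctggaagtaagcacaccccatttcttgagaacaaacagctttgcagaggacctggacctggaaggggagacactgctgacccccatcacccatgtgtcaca
The other 7 genes have no exon of another gene opposite to them in that annotation. A read of their mRNA falls in no counted feature if the strands were swapped.

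**Figure D1:**
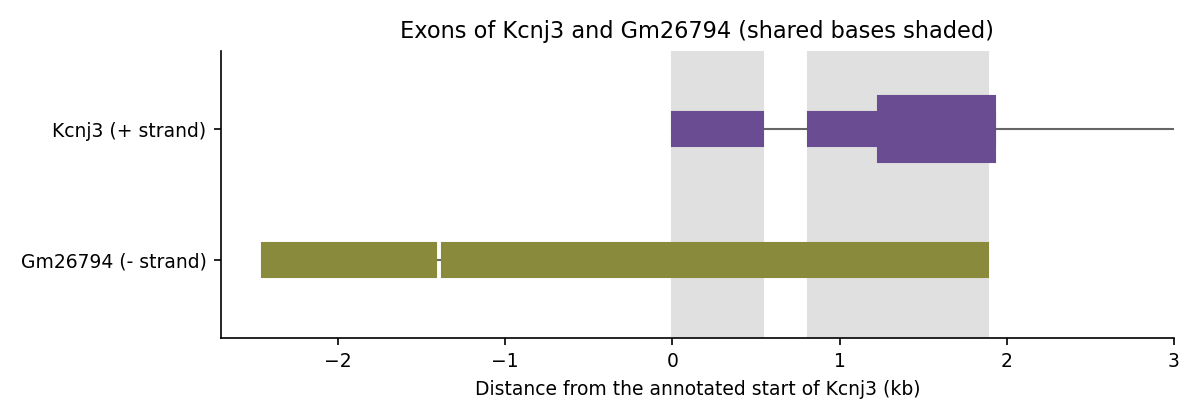
Exons of Kcnj3 (+ strand, coding part taller) and Gm26794 (- strand) against the distance in kb from the annotated start of Kcnj3. The shaded segments of 541 and 1080 bases are the exonic bases both features share, and Gm26794 runs on upstream of the start of Kcnj3.

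Kcnj3, a subunit of the acetylcholine-gated potassium channel, was lower in every Acly_KD library than in every control in the reading of mRNA, and did not pass the test over all genes. Read through Gm26794, it received 376, 251 and 427 reads in the Acly_KD libraries against 178, 667 and 545 in the controls. As CPM, the usual scale of counts relative to library size, here with TMM factors, the levels were 1050, 1144 and 1079 CPM in Acly_KD and 1266, 1549 and 1486 CPM in control. The 3 Acly_KD libraries lay close together below the controls, and control 1 was the lowest of its group. The means were 1091 ± 48.2 CPM in Acly_KD and 1434 ± 148 CPM in control (SD, n = 3 each). The log2 fold change of Acly_KD over control was -0.40, with a 95% interval from -0.67 to -0.13 (SE 0.13, unadjusted p = 0.00522, adjusted p = 0.230 in edgeR's quasi-likelihood model over 1453 genes). Of those genes 0.413% passed at an adjusted p of 0.05, and Kcnj3 was not among them. Groups that did not overlap, with Acly_KD lower, were found for 6.61% of the genes tested, and an unadjusted p under 0.05 with a lower value for 4.34%. Exact permutation of the library labels, two-sided, gave p = 0.1, and groups of 3 can reach no smaller value.

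The libraries differed in a further respect that moved the Kcnj3 value. By the same rule Xist, the RNA of the inactive X chromosome, received 149 reads in control 2, 137 in control 3 and 0 in the other 4 libraries. These were also the controls with most Kcnj3. With a term for those libraries in the model the log2 fold change of Kcnj3 was -0.22, with an interval from -0.58 to 0.15. Only control 1 then stands for controls without such reads, and it held 1266 CPM against 1050 to 1144 CPM in Acly_KD. Whatever else goes with those reads cannot be told apart from the group in controls 2 and 3. Without Acly_KD replicates 1 and 2, with the lone Acly_KD library assumed to vary like the controls, the value was -0.44, and with each single library left out it ran from -0.48 to -0.34.

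**Figure D2:**
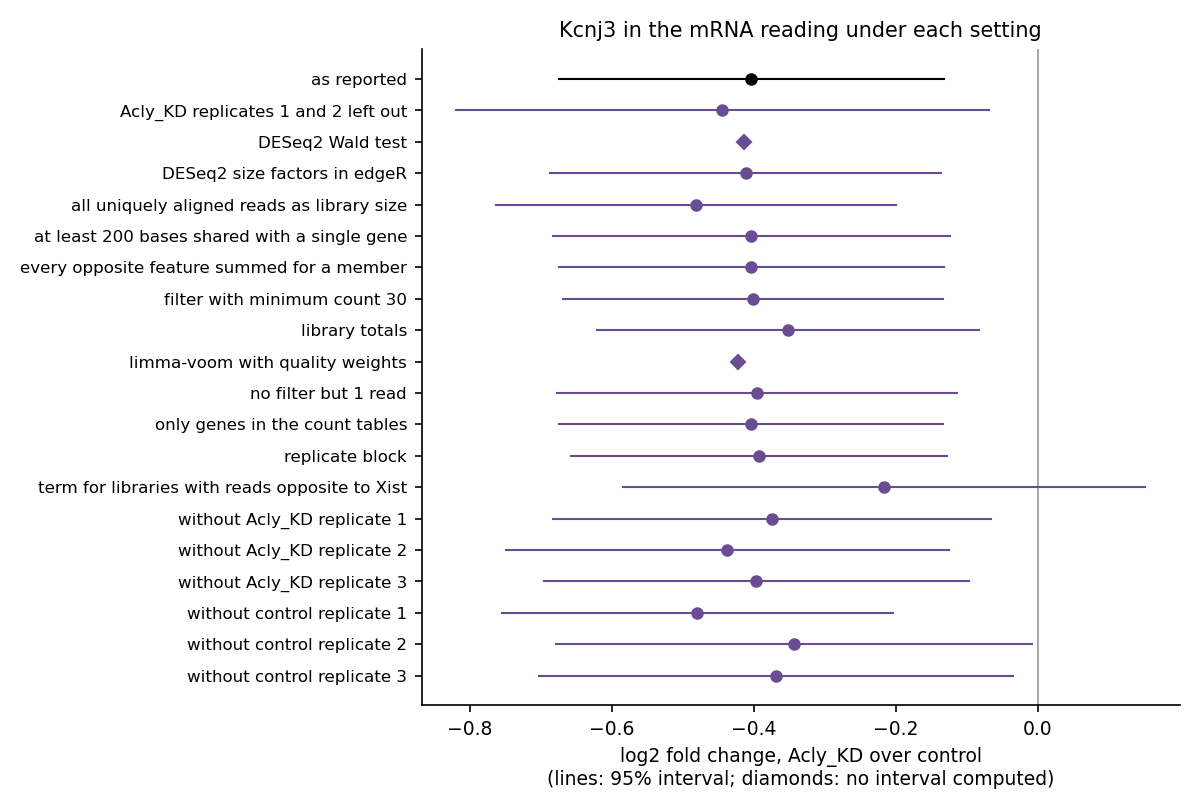
Log2 fold change of Kcnj3 in the reading of mRNA (x axis, Acly_KD over control) for the reported fit and each alternative (y axis), with 95% intervals as lines. All points lie below zero, from -0.48 to -0.22, and the interval crosses zero with the term for libraries with reads opposite to Xist.

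The whole count of Gm26794 enters that value. Of the 4312 exonic bases of Gm26794, 37.6% lie opposite to Kcnj3 exons, and these cover 31.1% of the 5215 exonic bases of Kcnj3. Reads of Kcnj3 mRNA, reads elsewhere in Gm26794 and reads of the Gm26794 RNA itself cannot be told apart. Read as deposited, as the lincRNA on its own strand, the same counts gave Gm26794 a log2 fold change of -0.37 with an interval from -0.69 to -0.06 (adjusted p = 0.687 in edgeR over 2952 features, of which 0.00% passed). With the term for libraries with reads opposite to Xist it was -0.18. Few reads lay at the own locus of Kcnj3, with 15, 17 and 24 for Acly_KD against 17, 31 and 32 for control. In CPM these were 23.0 to 41.5 for Acly_KD and 36.7 to 61.9 for control, and the groups overlapped. Here the log2 fold change was -0.59, with an interval from -1.43 to 0.24 (SE 0.39, adjusted p = 0.906 in edgeR). It was -0.996 with the term for libraries with reads opposite to Xist, and -0.37 without control 1 or by limma-voom. Own-locus reads of Kcnj3 were 3.99% to 6.77% of the opposite reads in the Acly_KD libraries and 4.65% to 9.55% in the controls.

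Among 1314 other named genes of the reading of mRNA, the profiles of Kcnj3 over the 6 libraries were most like those of Txnip and Corin. Likeness was the root mean square difference of log2 CPM, each gene centred on its own mean. It was 0.0644 for Txnip, an inhibitor of glucose uptake read through 606 bases shared with Gm15441, and 0.0768 for Corin, the protease that processes natriuretic peptides, read through 147 bases shared with Gm20647. The median over the 1314 genes was 0.371, and 0.217 would be the value of a gene that did not vary. All 3 genes had their lowest values in Acly_KD and their lowest control value in control 1. Txnip stood at 22409 to 23416 CPM in Acly_KD and 26848 to 30690 CPM in control, and Corin at 1024 to 1128 and 1252 to 1639 CPM.

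Kcnj11, the pore of the ATP-sensitive potassium channel, received more reads at its own locus than the other 8 genes. With no opposite-strand exon it has no reading of mRNA. If the strands were swapped, its counts are wrong-strand reads and do not measure the mRNA. Its reads were 53, 62 and 122 for Acly_KD against 32, 77 and 86 for control. Scaled, this gave 81.4, 151 and 152 CPM in Acly_KD and 117, 91.1 and 124 CPM in control, means of 128 ± 40.8 and 110 ± 17.1 CPM (SD, n = 3 each). The groups overlapped, with Acly_KD replicate 1 the lowest and replicates 2 and 3 the highest of the 6 libraries. The log2 fold change was 0.22, with an interval from -0.35 to 0.79 (SE 0.27, adjusted p = 0.964 in edgeR). An interval of this width holds both a fall and a rise, so no difference was detectable in these own-locus reads.

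Kcnj11 has no annotated opposite-strand exon, and its own-locus count stood out among such features. Per kb of exon it had 117 reads over the 6 libraries, rank 93 of 36985 nuclear features without opposite-strand exons, where the median of the 9119 with any read was 1.37. The neighbouring genes were far lower, with 5.93 reads per kb for Abcc8, 3.76 kb away on the same strand, and 9.27 for Nomo1. Features without opposite-strand exons held 3.35%, 4.27% and 6.70% of the Acly_KD reads and 6.26%, 6.55% and 5.16% of the control reads. In CPM of the reads in these features alone, Kcnj11 stood at 2354, 3159 and 2276 in Acly_KD and at 1882, 1443 and 2210 in control. On this scale, chosen after the data were seen, all Acly_KD libraries were above all controls, as for 5.05% of the 555 such features tested. A fit to these features alone gave a log2 fold change of 0.55 with an interval from -0.22 to 1.33 (adjusted p = 0.915 in edgeR, with 0.00% of the 555 features called). Without Acly_KD replicate 1 the log2 fold change over all features was 0.48, without Acly_KD replicate 2 or 3 it was 0.11 or 0.10, and without control 2 it was 0.12. Without Acly_KD replicates 1 and 2 it was 0.47.

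Of the partners of Kcnj11, Abcc9 was tested in both readings and Abcc8 at its own locus alone. Abcc9, the receptor subunit of ventricular muscle cells and also a marker of pericytes, had 1058, 1459 and 1213 CPM in Acly_KD and 1245, 1409 and 1290 CPM in control in the reading of mRNA. It was read through 158 bases shared with 5330439B14Rik. Its log2 fold change was -0.09, with an interval from -0.38 to 0.20 (adjusted p = 0.915 in edgeR). Abcc8 had 5 to 12 reads per library at its own locus and a log2 fold change of 0.31 with an interval from -0.96 to 1.57.

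**Figure D3:**
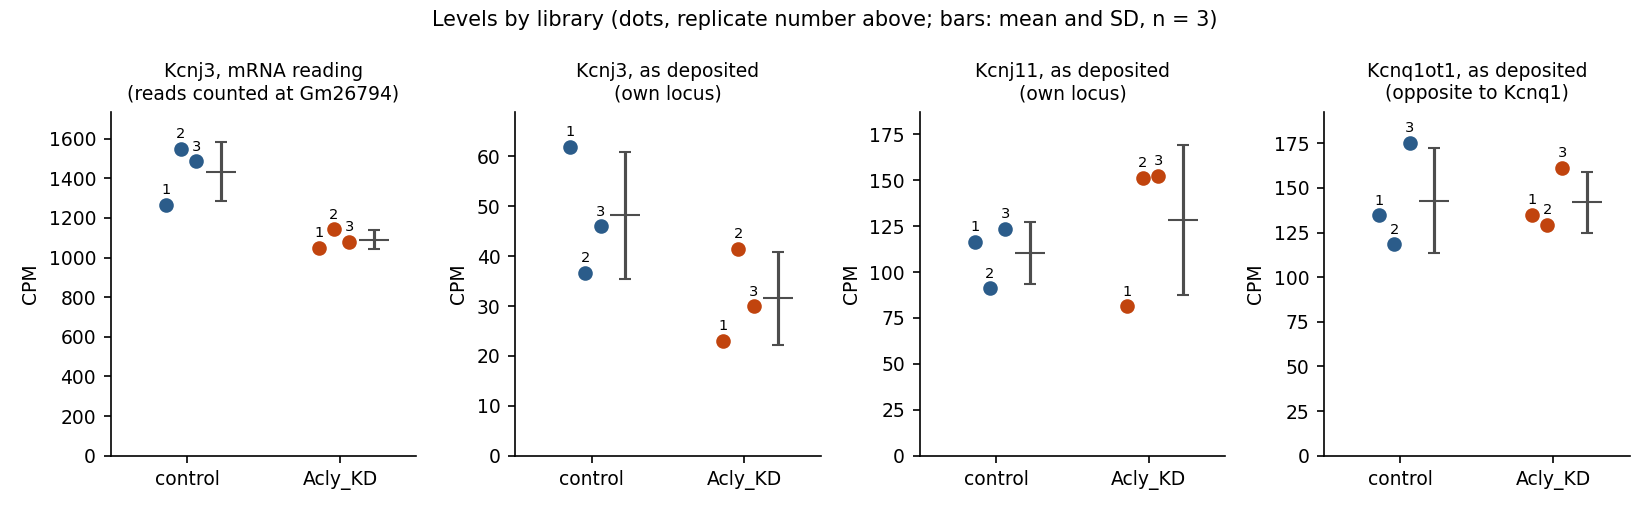
CPM (y axis, from 0) of Kcnj3 in the reading of mRNA, and of Kcnj3, Kcnj11 and Kcnq1ot1 as deposited, in the 3 control and 3 Acly_KD libraries (dots with replicate numbers), with mean and SD (n = 3). The groups are apart for Kcnj3 in the reading of mRNA, at 1050 to 1144 against 1266 to 1549 CPM, and overlap in the other panels.

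Kcnq1, the pore of the slow delayed rectifier, had 0, 0 and 0 reads at its own locus for Acly_KD against 1, 1 and 2 for control. Groups apart in this direction were found for 5.56% of the 2952 features tested, and Kcnq1 was too low to be one of them. The 4 control reads set against a floor of 3 counts over the Acly_KD group gave a value 1.37-fold lower. It takes the 4 reads as exact and leaves out their counting error, so it is no bound. It is near no change and rests on wrong-strand reads if the strands were swapped. Its opposite feature Kcnq1ot1 had 88, 53 and 129 reads in Acly_KD and 37, 100 and 122 in control. At 135, 129 and 161 CPM against 135, 118 and 175 CPM the groups overlapped throughout. The log2 fold change of Kcnq1ot1 was -0.01, with an interval from -0.48 to 0.47 (adjusted p = 0.993 in edgeR). The rule for the reading of mRNA did not give these reads to Kcnq1, since its 121 bases were 10.8% of the opposite-strand overlap of Kcnq1ot1 and 0.130% of its 93092 exonic bases. The remaining overlap was with 4 short RNA genes. Given to Kcnq1 nonetheless, as one of the alternatives, the reads gave a log2 fold change of -0.02 with an interval from -0.45 to 0.42. Kcnq1ot1 is annotated as a single exon that lies mostly opposite to introns of Kcnq1, and spliced and unspliced RNA cannot be told apart in its count.

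At their own loci the channel and junction genes that carry repolarization and coupling in the ventricle had almost no reads. The reads of Kcnip2 and Kcnd2, and those of Kcnh2, Kcnj5, Gja1 and Scn4b below, are all own-locus reads. If the strands were swapped these are wrong-strand reads, and their low number says nothing of the mRNA. Kcnip2, the partner of the transient outward channel, had 1, 4 and 8 reads for Acly_KD against 2, 10 and 5 for control. Its ratio of Acly_KD to control was 0.746, with an exact 95% interval from 0.333 to 1.63 that covers counting error only. Kcnd2, the pore of that channel, had 1 read in each group, in replicate 3 of both.

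For Kcnh2, the pore of the rapid delayed rectifier, 0, 0 and 5 reads were counted in Acly_KD and 1, 5 and 7 in control, a ratio of 0.375 with an interval from 0.105 to 1.12. Kcnj5, which pairs with Kcnj3, had 0, 0 and 1 reads against 0, 4 and 2, a ratio of 0.163 with an interval from 0.00353 to 1.34. The intervals of both ratios include no change, and the Acly_KD reads of both are mostly or wholly in replicate 3.

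Gja1, which encodes connexin 43, had 4, 1 and 4 reads in Acly_KD and 0, 4 and 5 in control, a ratio of 0.975 with an interval from 0.343 to 2.77. Scn4b, the sodium channel beta subunit, had 3, 2 and 0 reads in Acly_KD and 2, 5 and 0 in control, a ratio of 0.697 with an interval from 0.174 to 2.55. Neither ratio is distinguishable from no change or from a change of 2-fold in either direction.

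**Figure D4:**
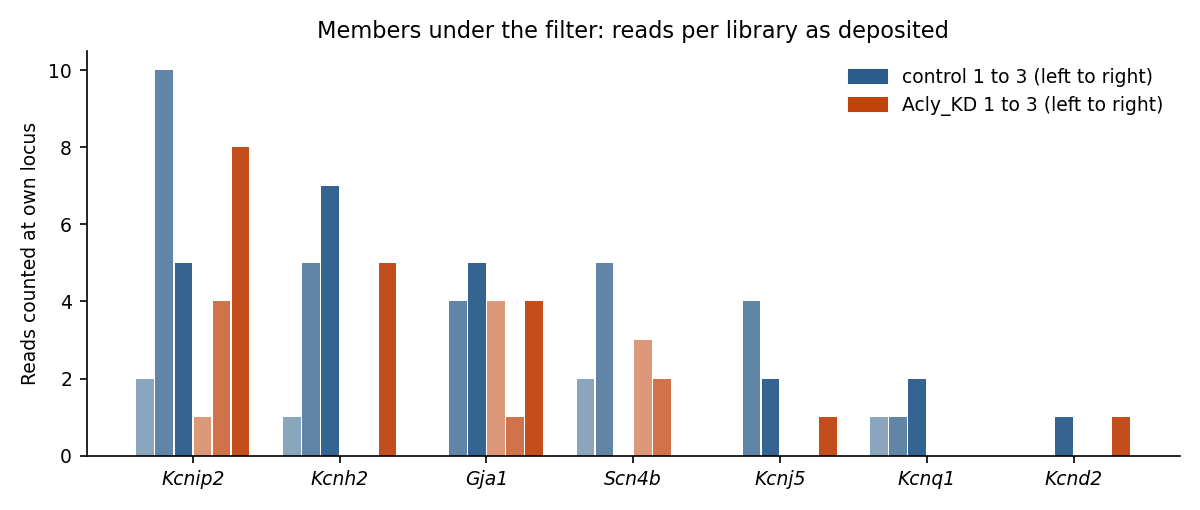
Reads per library counted at the own locus (y axis) of the 7 genes that did not pass the filter on low counts, with control replicates 1 to 3 and Acly_KD replicates 1 to 3 as bars from left to right. No bar exceeds 10 reads, and Kcnq1 has no bar in the Acly_KD libraries.

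Summed over these 7 genes the reads were 8, 7 and 19 for Acly_KD against 6, 29 and 22 for control, or 12.3, 17.1 and 23.7 CPM against 21.8, 34.3 and 31.6 CPM. The mean CPM of 6 of the 7 was lower in Acly_KD, and the summed groups overlapped. At their own loci all 11 heart muscle markers (median log2 fold change -0.43) and 1607 of the 2952 features tested also lay below zero. In the reading of mRNA 2 of the 11 markers were tested and both lay above zero, Atp2a2 at 0.03 and Myl2 at 0.11. The sum over the 7 genes was lowest in Acly_KD replicates 1 and 2. These libraries had the smallest shares of reads in features without opposite-strand exons, given above, and the part of that share in the sum was not tested. In CPM of the reads in such features alone, the 6 genes other than Kcnq1 summed to 355, 357 and 354 in Acly_KD and 294, 525 and 514 in control, which again overlapped. The floor of 3 counts allowed 3.55 to 10.9 CPM in a library with 0 reads, so most single values of these genes lie at or under what a count of 0 allows. Exact permutation, two-sided and gene by gene, gave p from 0.1 for Kcnq1 to 1.0 for Kcnd2.

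Per kb of exon at the own locus, over all 6 libraries, Kcnj11 stood at 32.5 ± 8.06 CPM and Kcnj3 at 7.64 ± 2.60 (SD, n = 6), and their ranges did not overlap. Kcnip2 came next at 2.28 ± 1.04, with a range below that of Kcnj3. From Kcnip2 down through Kcnh2 (0.890), Scn4b (0.759), Gja1 (0.414), Kcnj5 (0.315), Kcnq1 (0.314) and Kcnd2 (0.0870), the ranges of neighbours in this order overlapped. This is an order of wrong-strand reads if the strands were swapped and carries no order of mRNA levels.

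The wider set of channel, junction and signalling genes held 133 genes in 8 lists, of which 20 could be tested in the reading of mRNA. None of the 20 passed by edgeR at an adjusted p of 0.05 or at an unadjusted p under 0.05, which 8.60% of all genes tested had, with 8 above and 12 below zero. Their median log2 fold change was -0.09, against 0.01 over all 1453 genes. At their own loci 24 were tested and 0 passed, with 1 at an unadjusted p under 0.05 (6.10% of all features), 6 above and 18 below zero, and a median of -0.13 against -0.04 over all 2952 features. That gene was Xirp1, an intercalated disc protein named after its value was seen. It stood at 158 to 227 CPM in Acly_KD and 186, 598 and 561 CPM in control. Its log2 fold change was -1.19 with an interval from -2.18 to -0.20 (adjusted p = 0.687 in edgeR). The groups overlapped, with control 1 within the Acly_KD range. The higher controls, 2 and 3, are the libraries with reads opposite to Xist.

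Chrm2 and Adora1 encode the receptors that open the Kcnj3 channel, and the interval of each holds zero. Chrm2, named for that role, had a log2 fold change of 0.18 with an interval from -0.38 to 0.73, and Adora1 of -0.17 with an interval from -0.64 to 0.29. Gnas, the stimulatory G protein subunit, had the most reads of that list and a narrow interval, from -0.12 to 0.23 around 0.05. Of its 4 tested genes 2 lay above and 2 below zero.

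Among other potassium channels the reading of mRNA held Kcnk3, an acid-sensitive background channel, at -0.16 (-0.58 to 0.27), and Kcng2, a modifier of voltage-gated channels, at -0.16 (-0.68 to 0.37), both as log2 fold changes with 95% intervals. Kcnn2, a calcium-activated channel named after its values were seen, had groups that did not overlap, at 63.2 to 77.5 CPM in Acly_KD and 78.3 to 114 CPM in control, with a log2 fold change of -0.48 (-1.14 to 0.17). Groups apart in this direction were found for 6.61% of the 1453 genes tested. Rangrf, which helps bring the cardiac sodium channel to the membrane, also had all Acly_KD libraries below all controls. Its levels were 1855 to 1978 CPM in Acly_KD and 2124 to 2303 CPM in control. The log2 fold change of Rangrf was -0.22 (-0.46 to 0.03). It was read through 1151 bases shared with Slc25a35, itself a protein-coding gene whose own reads cannot be told apart from it. The same holds for Piezo1 and Adora1, read through Ctu2 and Mybph. Cacna1s, a calcium channel pore best known from skeletal muscle, stood at 0.21 (-0.22 to 0.63) and the mechanosensitive channel Piezo1 at -0.10 (-0.41 to 0.22). At their own loci Kcnk3 stood at -0.73 (-1.67 to 0.21) and Kcng2 at 0.12 (-0.76 to 1.00). The Kcnk3 groups did not overlap there, at 13.8 to 31.2 CPM in Acly_KD and 34.5 to 36.4 CPM in control. Such groups, with Acly_KD lower, made up 5.56% of the 2952 features tested as deposited. None of these genes passed the test.

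In the connexin and intercalated disc list 5 genes were read as mRNA, 3 above and 2 below zero. Xirp2, a disc and actin-binding protein, had 4895, 2949 and 2801 CPM in Acly_KD and 2056, 2468 and 3127 CPM in control. The groups overlapped, and Acly_KD replicate 1 was far above the rest. Its log2 fold change was 0.47 with an interval from -0.18 to 1.13, and that of Nrap, another disc protein, was -0.05 with an interval from -0.32 to 0.22. Without Acly_KD replicate 1 the value of Xirp2 was 0.17, without Acly_KD replicates 1 and 2 it was 0.10, and with the term for libraries with reads opposite to Xist it was 0.79. Nrap was read through Habp2, itself protein-coding, and Gm17197, and stood at -0.20 where 200 shared bases with a single gene were required. Of the transcription factors known to regulate channel genes, Irx3 stood at 0.03 (-0.54 to 0.61) and Tbx3 at -0.57 (-1.66 to 0.52), the latter on 74 reads in all. Irx3 was read through 124 bases shared with Irx3os, and Tbx3 through 115 bases shared with Tbx3os1. Reads of those features' own RNA cannot be told apart from reads of Irx3 and Tbx3.

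**Figure D5:**
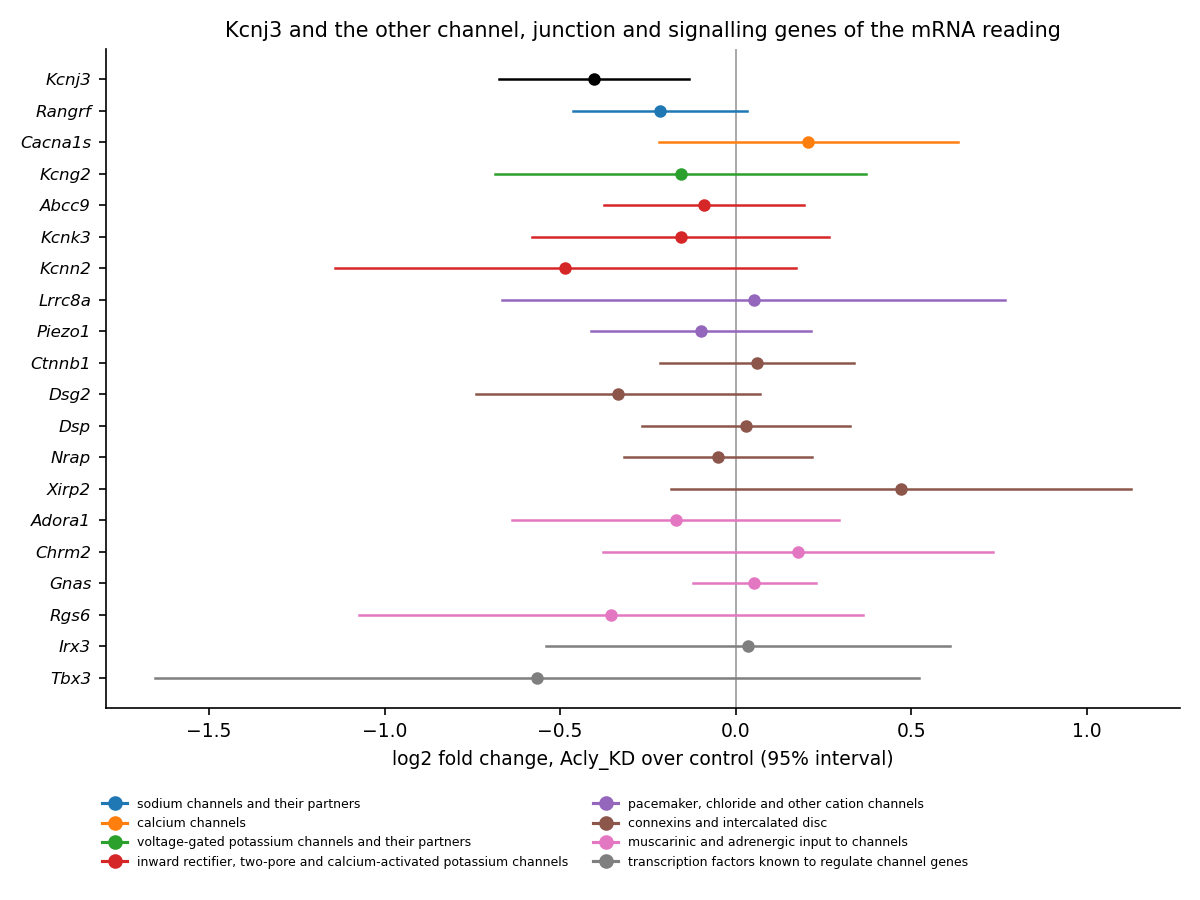
Log2 fold change (x axis, Acly_KD over control, with 95% intervals) of Kcnj3 and of the listed genes tested in the reading of mRNA, coloured by list, with 1 gene of the 20 not shown. The interval of Kcnj3 lies below zero, from -0.67 to -0.13, and those of all other genes shown cross zero.

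Kcnj3 is itself used as an atrial marker, so the other atrial and nodal markers are given beside it. Of 8 atrial markers only Nppa could be tested, and in the reading of mRNA it ranged from 3514 to 12036 CPM in Acly_KD and from 2575 to 8153 CPM in control, with groups that overlapped and a log2 fold change above zero (0.56, interval -1.35 to 2.46). At its own locus the log2 fold change of Nppa was -0.45 (interval -1.45 to 0.55). Over the 8 atrial markers the own-locus sum was 15.4 to 24.4 CPM in Acly_KD and 21.8 to 39.0 CPM in control. Sln, Bmp10 and Dkk3 were at 0 in every library. At their own loci the 8 conduction system markers summed to 2.44 to 7.50 CPM in Acly_KD and 1.44 to 14.6 CPM in control. Isl1 and Vsnl1 were at 0 there. Own-locus values come from wrong-strand reads if the strands were swapped. In the reading of mRNA 2 of these 8 markers had counts, which summed to 8.38 to 54.7 CPM in Acly_KD and 21.3 to 58.0 CPM in control. Only Tbx3 was tested, with a log2 fold change of -0.57 (interval -1.66 to 0.52). The part of a different share of atrial or nodal cells in the Kcnj3 result was not tested, and fewer such cells and less Kcnj3 RNA per cell cannot be told apart in these bulk samples. Endothelial markers at their own loci summed to 47.6 to 249 CPM in Acly_KD and 99.2 to 153 CPM in control, and pericyte and smooth muscle markers to 56.8 to 180 and 124 to 135 CPM. Like the heart muscle markers at their own loci, both ranged more widely in Acly_KD, a difference in spread that was not tested. As mRNA, the 2 heart muscle markers tested summed to 40551 to 46860 CPM in Acly_KD and 40649 to 46590 CPM in control.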

How the data were processed

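Per the labels' protocols, poly-A RNA went into libraries of a stranded kit. FastQC, TopHat2, SAMtools, HTSeq, DESeq2 and mm10 are named in the submitters' processing notes, and no source used here gives the strand setting of HTSeq. The authors deposited whole-number gene counts without normalization, per the file contents. Rows that name no gene, 97.4% to 97.7% of all entries of a library, stayed out of sizes and tests. Libraries were grouped by title, 3 per group, and no pair within a group repeated one library (chi-square per degree of freedom 3.43 to 10.1). GENCODE M21 held 45143 of the 46078 identifiers.

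In the reading of mRNA a nuclear feature's counts went to a gene that held 80% or more of its exonic overlap on the other strand, over 50 or more bases, where the count of that gene itself was lower or absent. It gave 2973 genes and 140295 to 445228 reads per library. Of the 9 genes, 1 was tested in this reading and 2 as deposited.

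The test was the robust quasi-likelihood one of edgeR 4.0.16 (R 4.3.3) after TMM and filterByExpr at a minimum count of 10, with Benjamini-Hochberg adjustment over all genes tested and a threshold of 0.05. It was tested on simulated data. Alternatives used DESeq2 1.42.0, limma 3.58.1, other scales, filters, rules and libraries. The genes and lists were chosen with earlier results of these data known. Named were the 9 genes, their opposite features, Acly, per list the genes passing or else the 2 with most reads as mRNA, and the 2 most like Kcnj3; Abcc8, Nomo1, Xirp1, Chrm2, Kcnn2 and marker genes were picked outside that rule with their values known. A further gene that the rule names is counted in its list and not reported here. Ratio intervals are exact binomial (Clopper-Pearson) on reads scaled by library size.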

Additional observations from a re-analysis of the deposited data

How the results depend on the processing

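None of the 9 genes passed under any of the alternatives run, in either reading, among those that each filter let through. Kcnj3 stayed below zero in all 19 alternatives of the reading of mRNA (adjusted p 0.128 to 0.867) and Kcnj11 above zero in all 18 as deposited (adjusted p 0.662 to 1.00). The cause of the changes that follow was not tested.

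The number of genes called in the reading of mRNA, 6 as reported, was 2 with library sizes from all aligned reads, 0 with a minimum count of 30, 30 with no filter, 0 with the term for libraries with reads opposite to Xist (98 and 96 at an unadjusted p under 0.05 for these zeros), 2 without Acly_KD replicates 1 and 2, where the lone Acly_KD library is assumed to vary like the controls, and 1 to 20 with single libraries left out, the highest without Acly_KD replicate 3. As deposited, 0 as reported (180 at an unadjusted p under 0.05, and 0 by DESeq2), it was 3 with no filter, 36 without Acly_KD replicates 1 and 2, and 0 to 69 with single libraries left out, the highest without Acly_KD replicate 3. With the replicate block it was 12 and 0. The numbers do not pair the libraries (correlation of deviations -0.05 to -0.01 as mRNA and -0.18 to -0.02 as deposited, no library best with its own number), and Kcnj3 was -0.39 with the block.

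Several values whose intervals hold zero changed sign. Kcnq1ot1 was 0.16 without Acly_KD replicates 1 and 2, 0.0308 with DESeq2, 0.0311 with its size factors in edgeR, 0.0334 with mitochondrial genes left out, 0.0741 with no filter, 0.0818 with the Xist term and -0.11 to 0.19 with single libraries left out. With the Xist term Kcnk3 was 0.26, Piezo1 0.0364, Nrap 0.26 and Tbx3 0.51; without Acly_KD replicates 1 and 2 Kcng2 was 0.27, Kcnk3 0.19 and Gnas -0.10. Library totals gave Nrap 0.00045; all aligned reads gave Gnas -0.0242 and Irx3 -0.0276, and limma-voom Irx3 -0.13. With single libraries left out the ranges were -0.49 to 0.0019 for Kcng2, -0.22 to 0.0169 for Abcc9, -0.18 to 0.0268 for Nrap and -0.39 to 0.25 for Irx3. Mitochondrial genes are not part of the reading of mRNA, so leaving them out was not run there. At their own loci the 7 genes with at most 10 reads per library were not tested in the reported fit, and the alternative with no filter kept them.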
